A study of Mus musculus with 24 samples.

Results

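The interferon p200 family genes described here were Ifi209, Ifi204, Ifi203 and Ifi202b. Every probe set annotated to 1 of these 4 symbols was taken, which gave 8 of the 22626 probe sets measured. Of the 8, 4 named a single gene and 4 named several genes or loci. Ifi209 had 2 probe sets of its own (1435330_at and 1435331_at), Ifi202b had 1 (1421551_s_at) and Ifi204 had 1 (1419603_at). A further probe set (1452348_s_at) named Ifi204 together with Mndal, Ifi211 and Ifi205. The 3 probe sets annotated to Ifi203 (1448775_at, 1425008_a_at and 1451567_a_at) also named the pseudogene Ifi203-ps and uncharacterised loci, so their signals are given as those of the Ifi203 loci together.

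RNA of whole lung from male mice aged 8 weeks, given no treatment, was measured on 24 arrays, 2 for each of 12 kinds of mice. The progenitors were the inbred strains C57BL/6J, called B6, and C3H/HeJ, called C3. An F1 hybrid of the pair (BXHF1) was included, with 9 BXH recombinant inbred (RI) strains, BXH2, BXH4, BXH6, BXH7, BXH8, BXH9, BXH10, BXH14 and BXH19. An RI strain comes from crossing the progenitors and inbreeding the offspring, so that it is fixed for 1 progenitor's allele at most loci. The labels do not say how the arrays of a strain relate beyond their numbering, so p-values rest on the differences between paired arrays alone, and that spread may be technical.

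The p200 proteins bind nucleic acid through HIN domains, and most of them also carry a PYRIN domain through which they join other proteins. Their genes form a single cluster on mouse chromosome 1, and many are induced by interferon through elements in their promoters. Aim2 senses DNA in the cytosol and starts an inflammasome. The Ifi202b product lacks a PYRIN domain and binds DNA in competition with Aim2, and the gene is known for large differences between mouse strains and for its place in a lupus susceptibility region. The Ifi204 product is known for roles in cell growth, differentiation and DNA sensing. The roles of the Ifi203 and Ifi209 products are less well described. In whole lung, fewer cells of a type and less RNA per cell cannot be told apart.

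Promoter sequences are shown because they are the places where an interferon-response element would lie, and because they differ among family members. They were taken from RefSeq for the mouse assembly GRCm38.p6, whose sequence is that of C57BL/6J. The 250 bases before the start of the gene are printed for Ifi209 and Ifi202b, the members that differed most between the progenitors. The letters searched, on both strands, were GAAA, any 2 bases, and GAAA again, the core of an interferon-stimulated response element. This core was held by 978 of the 32851 promoter windows of all genes (2.98%). The Ifi209 window held 4 places with 1 mismatch to it, and capitals mark the one closest to the core of Ifi203 (G1T, counted from the first base of the core). The Ifi202b window held no place with fewer than 2 mismatches.
Ifi209, chr1:173630609-173630858, plus strand: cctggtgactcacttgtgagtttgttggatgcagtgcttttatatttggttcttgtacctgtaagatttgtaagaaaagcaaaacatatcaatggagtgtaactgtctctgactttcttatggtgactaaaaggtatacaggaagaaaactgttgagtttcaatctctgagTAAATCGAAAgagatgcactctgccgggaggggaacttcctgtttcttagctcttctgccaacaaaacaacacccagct
Ifi202b, chr1:173982845-173983094, minus strand: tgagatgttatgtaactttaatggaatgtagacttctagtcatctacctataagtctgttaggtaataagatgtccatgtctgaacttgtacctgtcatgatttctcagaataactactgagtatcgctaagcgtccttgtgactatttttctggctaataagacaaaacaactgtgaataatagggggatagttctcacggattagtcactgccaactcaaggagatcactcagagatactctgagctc

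Of 13 p200 genes, 12 had a promoter window, and 9 of these held the core: Ifi203, Mndal, Ifi211, Ifi205, Ifi214, Ifi206, Ifi207, Ifi208 and Ifi213. Ifi209, Ifi202b and Aim2 did not hold it. Counted by gene, 936 of all 27025 genes with a window (3.46%) held it in at least 1 window. Ifi203 had 2 windows, for different starts, and 1 of them held the core. Mndal also had 2 windows, both with the core, and 1 of them is printed. The 30 bases around the core (in capitals) are set beside those of Ifi209 to show how alike the family's promoters are.
Ifi203, chr1:173942508-173942537, minus strand: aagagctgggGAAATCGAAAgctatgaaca
Mndal, chr1:173880204-173880233, minus strand: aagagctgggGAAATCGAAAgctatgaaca
Ifi211, chr1:173913064-173913093, minus strand: caaagccaggGAAATTGAAAgctatgaacg
Ifi205, chr1:174031870-174031899, minus strand: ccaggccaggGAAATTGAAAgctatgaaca
Ifi214, chr1:173536017-173536046, minus strand: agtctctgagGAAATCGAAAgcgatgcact
Ifi209, chr1:173630770-173630799, plus strand: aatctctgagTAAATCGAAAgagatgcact
The 30 bases printed for Ifi203 and Mndal were the same letter for letter. A match is a description of these letters and not a site of binding, and the sequence of the C3 strain was not used here.

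Ifi209 and Ifi202b differed between the progenitors in opposite directions. Ifi209 was 3.79-fold higher in B6 than in C3 in its brighter probe set, as a ratio of mean signal. Its second probe set gave a smaller ratio of 2.19 and was not called. How well the probes match the C3 sequence was not tested. Ifi202b was higher in C3, at a mean signal of 129.6 against 8.6 in B6, and no fold is given because the B6 signal lay near the bottom of the array. Signals are the linear intensities as deposited. Tests were run with limma on log2(signal + 16) over all probe sets, with Benjamini-Hochberg adjustment over all of them and a threshold of 0.05. In C3 minus B6, 2 of the 8 member probe sets were called, 1 lower in C3 and 1 higher, against 1.18% of all probe sets (0.676% lower and 0.508% higher). An unadjusted p below 0.05 was reached by 5 of the 8, and by 7.84% of all probe sets.

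For Ifi209 the brighter probe set (1435330_at) gave signals of 521.8 and 438.4 in B6, with a mean of 480.1 ± 59 (SD, n = 2). In C3 it gave 114.1 and 139.0, with a mean of 126.5 ± 17.6 (n = 2). The arrays of the progenitors did not overlap. On the log2(signal + 16) scale C3 was lower by a difference of -1.80 (SE 0.26, limma adjusted p = 0.000883). The second Ifi209 probe set (1435331_at) gave 176.9 and 228.5 in B6 (202.7 ± 36.5, n = 2) against 95.3 and 90.2 in C3 (92.8 ± 3.61, n = 2). Its arrays did not overlap either, and its difference of -1.0 (SE 0.25) missed the threshold with a limma adjusted p of 0.0677. It passed after quantile normalization (-0.94, limma adjusted p = 0.0499), without a variance trend (limma adjusted p = 0.0381), and with either BXH2 array left out (0.0427 without replicate 1 and 0.042 without replicate 2).

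Ifi202b gave signals of 7.6 and 9.6 in B6 (8.6 ± 1.41, n = 2). In C3 its signals were 153.2 and 106.1 (129.6 ± 33.3, n = 2). The difference on the log2(signal + 16) scale, which understates changes of low signals, was 2.55 (SE 0.33, limma adjusted p = 0.000324). Its size depends on the offset added to the low B6 signals, and it was 3.75 with an offset of 1 and 1.40 with an offset of 64.

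In the F1 hybrid, which carries 1 copy of each progenitor's chromosome 1, both genes lay between the progenitors. Ifi209 (1435330_at) gave 299.2 and 197.6 in the hybrid (248.4 ± 71.8, n = 2), and the mean of the progenitors' signals was 303.3. Ifi202b gave 52.8 and 61.7 (57.2 ± 6.29, n = 2), and the mean of the progenitors' signals was 69.1. Neither array of the hybrid overlapped with those of B6 or C3 for either of these probe sets. The test of the hybrid against the log2 midpoint of the progenitors called 0 of the 8 member probe sets, against 0.0619% of all probe sets, and none of the 8 reached an unadjusted p below 0.05. The differences were -0.03 (SE 0.22, limma adjusted p = 0.991) for Ifi209 and 0.30 (SE 0.29, limma adjusted p = 0.918) for Ifi202b. The second Ifi209 probe set gave 98.6 and 120.1 in the hybrid, at a difference from the midpoint of -0.30 (SE 0.21, limma adjusted p = 0.872).

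Over all 12 strains 4 of the 8 member probe sets were called, and 5.48% of all probe sets were. The same number was called between the 9 RI strains, against 5.44% of all probe sets, and 6 of the 8 had an unadjusted p below 0.05 in each of these tests, against 19.3% of all probe sets over the 12 strains and 19.4% between the RI strains. The called probe sets were both of Ifi209, that of Ifi202b, and 1448775_at of the Ifi203 loci.

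Among the RI strains, Ifi209 (1435330_at) was highest in BXH4, at 572.8 and 781.3 (677.0 ± 147.4, n = 2). BXH7 gave 617.1 and 520.6, BXH19 gave 531.4 and 463.8, and BXH8 gave 464.9 and 403.9. BXH10 gave 391.4 and 468.3, and BXH2 gave 465.1 and 276.4. Both BXH4 arrays lay above those of B6, and the arrays of the other 5 strains overlapped with those of B6. The other 3 strains were far lower: BXH9 gave 164.7 and 171.7, BXH14 gave 104.0 and 170.9, and BXH6 gave 121.1 and 126.0. Across arrays, C3, BXH6, BXH9 and BXH14 spanned 104.0 to 171.7, and B6 with the 6 other RI strains spanned 276.4 to 781.3. Of the 11 pairs of neighbours in the order of the strain means, the hybrid and BXH9 were the only pair whose arrays did not overlap. The RI strains differed by up to 2.30 on the log2 scale (limma adjusted p = 3.51e-05, and 2.03e-05 over the 12 strains).

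The second Ifi209 probe set (1435331_at) was also highest in BXH4 and lowest in BXH6. BXH4 gave 296.8 and 322.7, and BXH19 followed with 238.8 and 275.9. BXH6 gave 60.7 and 92.2, BXH14 gave 71.5 and 96.9, and BXH9 gave 96.3 and 123.3. BXH7 (207.1 and 220.0), BXH8 (181.2 and 194.5), BXH10 (166.4 and 143.2) and BXH2 (183.7 and 113.4) lay between these. Here the low and high strains touched, since the lower BXH2 array was below the higher BXH9 array. The limma adjusted p was 0.000783 between the RI strains and 0.000767 over the 12 strains.

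Ifi202b divided the RI strains in the same way, with the high and low levels exchanged. BXH9 gave 100.1 and 243.4 (171.8 ± 101.3, n = 2), BXH14 gave 101.1 and 133.9, and BXH6 gave 132.7 and 69.3. The other 6 RI strains were near the floor of the array: BXH2 gave 9.4 and 17.5, BXH7 gave 8.6 and 8.0, and BXH8 gave 7.8 and 8.0. BXH4 gave 6.8 and 8.8, BXH19 gave 5.5 and 9.9, and BXH10 gave 6.6 and 2.1. The arrays of C3, BXH6, BXH9 and BXH14 spanned 69.3 to 243.4, which placed Ifi202b between the 21.5 and 49.3 percentile of the probe sets of the same array. The arrays of B6 and the other 6 RI strains spanned 2.1 to 17.5, between the 0.831 and 9.96 percentile, where the order of strains carries no information. The RI strains differed by up to 3.10 on the log2 scale (limma adjusted p = 7.79e-06, and 4.7e-06 over the 12 strains).

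**Figure D1:**
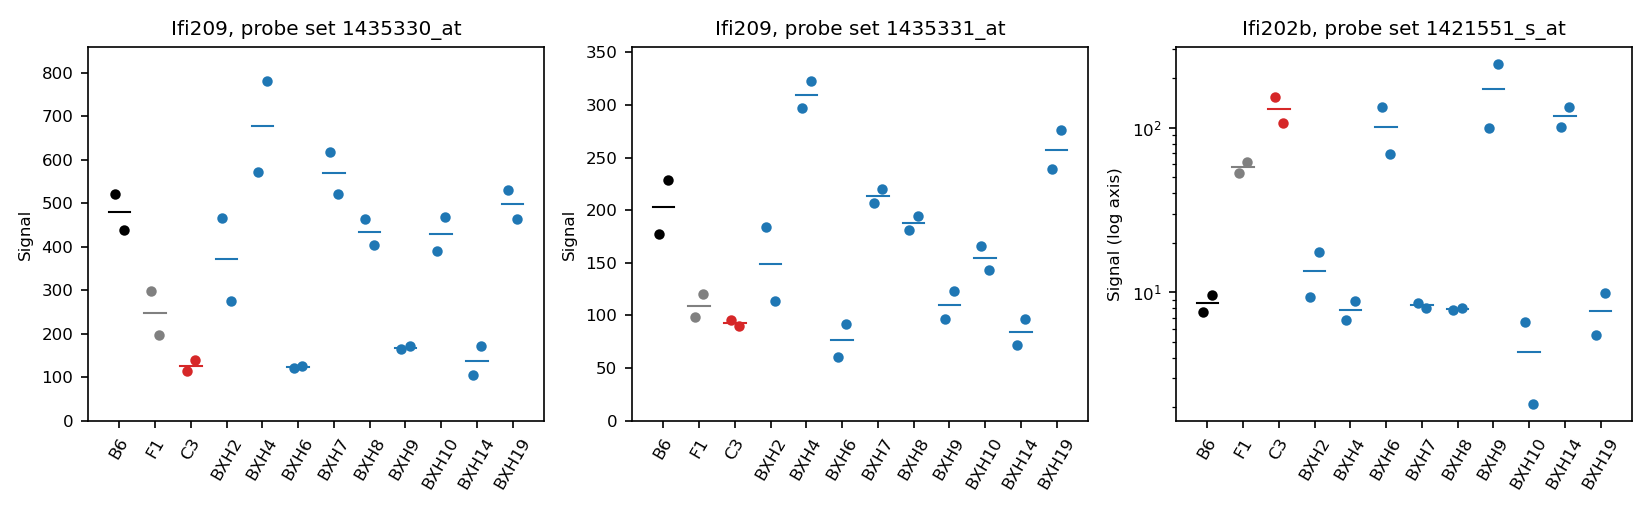
Signal (linear intensity) of both Ifi209 probe sets, on linear axes, and of Ifi202b, on a log axis, in the 12 strains. Points are arrays and bars are strain means, with B6 in black, the hybrid in grey, C3 in red and RI strains in blue. BXH6, BXH9 and BXH14 sit with C3 in the first and last panels, at 104.0 to 171.7 for Ifi209 (1435330_at) and 69.3 to 243.4 for Ifi202b.

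Each RI strain was placed on a scale where 0 is the B6 mean and 1 the C3 mean in log2(signal + 16), for probe sets whose progenitors differed by at least 1. For Ifi209 (1435330_at), 3 RI strains lay nearer C3, at 0.79 to 1.01, and 6 lay nearer B6, at -0.26 to 0.22. For Ifi202b the 3 nearer C3 lay at 0.86 to 1.11 and the 6 nearer B6 at -0.11 to 0.10. The 3 strains nearer C3 were BXH6, BXH9 and BXH14 in both probe sets. In these 2 probe sets no RI strain lay at the place of the hybrid (0.52 for Ifi209 and 0.62 for Ifi202b). The second Ifi209 probe set (1435331_at), at -1.0 when rounded, fell just short of the rule and was not placed. In it the hybrid (98.6 and 120.1) overlapped with BXH9 (96.3 and 123.3). Aim2, a relative with low signals whose progenitor difference was not called, was the only other measured probe set of the family that met the rule, and all 9 RI strains lay nearer C3 for it, at 0.51 to 1.29. Over the 12 strain means the log2 values of Ifi209 (1435330_at) and Ifi202b had a Pearson r of -0.95 (-0.93 over the 9 RI strains). The 2 Ifi209 probe sets had an r of 0.95 (0.96). These correlations are descriptions, between probe sets measured on the same arrays and over strains that share blocks of chromosome 1.

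**Figure D2:**
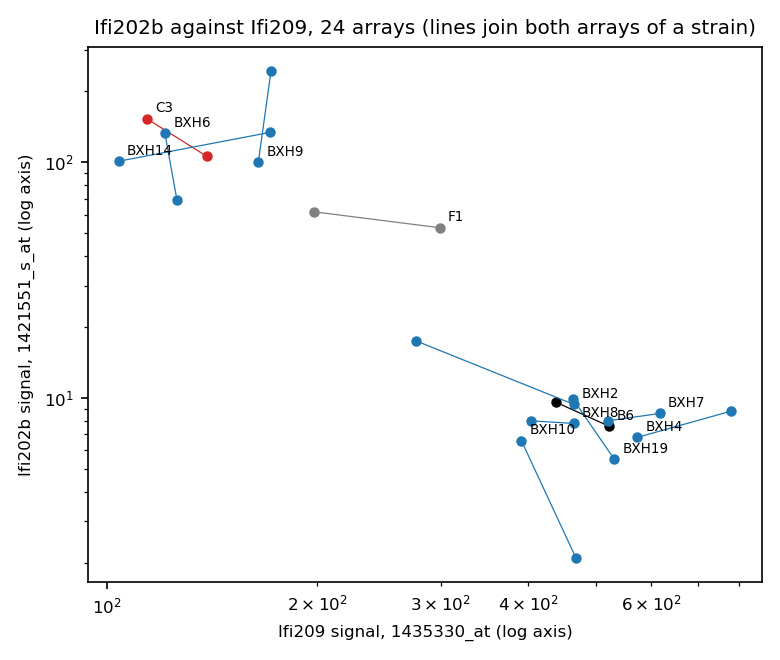
Ifi202b signal against Ifi209 signal (1435330_at), both linear intensities on log axes, on the 24 arrays. A line joins both arrays of a strain. C3, BXH6, BXH9 and BXH14 form the group high in Ifi202b and low in Ifi209, B6 and the other 6 RI strains form the opposite group, and the hybrid lies between.

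The main probe set of the Ifi203 loci (1448775_at) divided the strain means in the same direction as Ifi209, but the arrays overlapped. B6 and its 6 like RI strains had means of 628.2 to 1064.8, the hybrid a mean of 589.5, and BXH9, BXH14, BXH6 and C3 means of 443.9 to 588.6. The higher arrays of BXH6, BXH9 and BXH14, at 689.8, 686.5 and 712.0, each lay above both arrays of B6, BXH8 and BXH10. The probe set was highest in BXH4 at 1033.4 and 1096.1, in BXH19 at 932.6 and 1019.1 and in BXH7 at 868.4 and 1004.0. These 6 arrays lay above all 18 others, which spanned 382.6 to 841.1. The B6 arrays gave 659.0 and 661.1 and those of C3 gave 505.2 and 382.6, a difference of -0.57 (SE 0.22, limma adjusted p = 0.408), and the hybrid gave 594.7 and 584.3.

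In the remaining RI strains 1448775_at gave 841.1 and 617.0 in BXH2, 679.7 and 595.7 in BXH8, and 621.2 and 635.2 in BXH10. It gave 490.7 and 686.5 in BXH9, 463.4 and 712.0 in BXH14, and 467.0 and 689.8 in BXH6. All of these overlapped with at least 1 other strain of the 6. The limma adjusted p was 0.0219 over the 12 strains and 0.0417 between the RI strains, whose means spanned 0.89 on the log2 scale. Without both BXH4 arrays the RI test gave a limma adjusted p of 0.165, and leaving out BXH4 replicate 2 alone gave 0.113. With the fit limited to RI arrays it gave 0.085, and without a variance trend 0.0839. The call over the 12 strains was lost without a variance trend (limma adjusted p = 0.0533), without BXH4 replicate 1 (0.0555) or 2 (0.0667), without BXH19 replicate 2 (0.0564) and without C3 replicate 2 (0.0501).

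A second probe set of the Ifi203 loci (1451567_a_at) gave its highest signals in BXH9, at 589.2 and 501.1. BXH14 gave 393.0 and 527.9, BXH6 gave 406.1 and 358.8, and C3 gave 402.5 and 259.8 (331.1 ± 100.9, n = 2). B6 gave 250.9 and 197.9 (224.4 ± 37.5, n = 2), and the hybrid gave 310.4 and 336.4. The lowest strain was BXH10, at 277.2 and 142.1. C3, BXH6, BXH9 and BXH14 spanned 259.8 to 589.2 and overlapped with B6 and the other RI strains, at 142.1 to 402.6. C3 minus B6 was 0.51 (SE 0.33, limma adjusted p = 0.853), and the test gave limma adjusted p-values of 0.145 over the 12 strains and 0.103 between the RI strains. The RI value was 0.0494 without BXH10 replicate 1. Replicate 1 was higher than replicate 2 in 10 of 12 strains, and with the replicate number as a block the limma adjusted p was 0.0298 over the 12 strains and 0.0204 between the RI strains.

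The 2 probe sets of the Ifi203 loci changed unequally between strains. The log2 value of 1451567_a_at minus that of 1448775_at was -1.34 and -1.66 for the B6 arrays, against -0.32 and -0.53 for C3. The hybrid gave -0.90 and -0.77. It was 0.26 and -0.44 in BXH9, -0.23 and -0.42 in BXH14 and -0.19 and -0.91 in BXH6. In the other 6 RI strains it lay between -1.08 and -2.04, so by the means of this difference BXH6, BXH9 and BXH14 again lay with C3. By array, BXH6 replicate 2 (-0.91) lay beside the hybrid. Replicate 1 was higher than replicate 2 in this difference in every strain but the hybrid. A difference between probe sets shows that they changed unequally and does not say which transcript changed. Over the 12 strain means 1448775_at had an r of 0.82 with Ifi209 (1435330_at), 1451567_a_at had an r of 0.78 with Ifi202b, and the 2 probe sets had an r of -0.18 with each other.

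**Figure D3:**
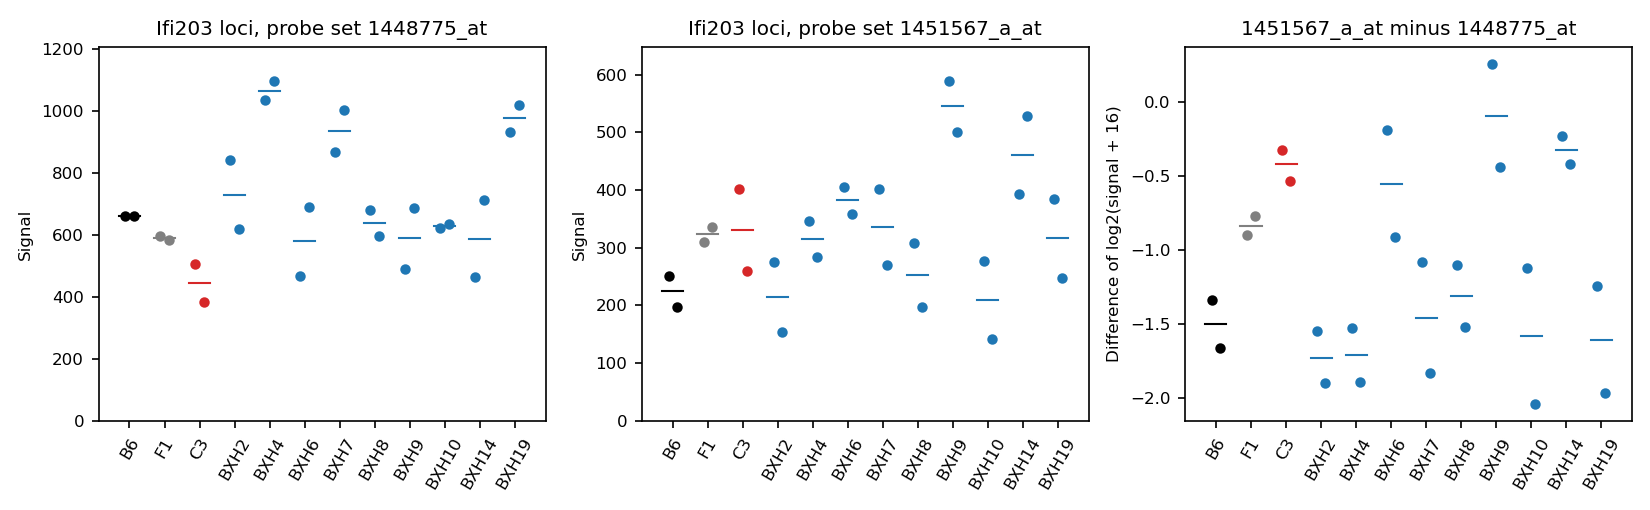
The 12 strains in the 2 probe sets of the Ifi203 loci (first panels, linear intensity) and in their log2 difference, 1451567_a_at minus 1448775_at (last panel). Points are arrays and bars are strain means. BXH4, BXH7 and BXH19 are highest in 1448775_at (868.4 to 1096.1), and C3, BXH6, BXH9 and BXH14 have the highest mean differences.

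The third probe set of the Ifi203 loci (1425008_a_at) ranged from 33.9 to 194.0 over the 24 arrays, with a median of 101.3. It was not called over the 12 strains (limma adjusted p = 0.53) or between the RI strains (0.435), and its C3 minus B6 difference was -0.25 (SE 0.44, limma adjusted p = 1), which was 0.30 without C3 replicate 2.

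Ifi204 was at the bottom of the array. Its own probe set (1419603_at) ranged from 0.6 to 35.1 over the 24 arrays, with a median of 13.9, which is between the 0.0486 and 14.9 percentile of the probe sets of an array. Signals this low give no order of strains. Its C3 minus B6 difference was -0.68 (SE 0.32, limma adjusted p = 0.636). The limma adjusted p was 0.0818 over the 12 strains and 0.0722 between the RI strains. It fell under the threshold between the RI strains without BXH14 replicate 2 (0.0382), BXH8 replicate 2 (0.0438), F1 replicate 1 (0.0497) or F1 replicate 2 (0.049). Over the 12 strains it did so without BXH14 replicate 2 (0.0466) or F1 replicate 2 (0.0453).

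The probe set that names Ifi204 with Mndal, Ifi211 and Ifi205 (1452348_s_at) was brighter, at 196.0 to 463.5 with a median of 327.2. It was not called in any test: the limma adjusted p was 0.371 over the 12 strains, 0.384 between the RI strains and 0.931 for C3 minus B6 (-0.30, SE 0.24, which was 0.04 without C3 replicate 2).

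Among relatives of the family, 4 more probe sets were measured. Aim2 (1426619_at), the cytosolic DNA sensor, was low at 1.9 to 62.6, and its C3 minus B6 difference of 1.32 (SE 0.52) had a limma adjusted p of 0.453. Mndal, a close relative of the Ifi204 gene, gave 864.2 to 1694.1 in 1426906_at and 789.9 to 2099.8 in 1452231_x_at. Neither was called over the 12 strains (limma adjusted p = 0.056 and 0.0856) or between the RI strains (0.121 and 0.12). Over the 12 strain means the first Mndal probe set had an r of 0.88 with 1448775_at.

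The probe set that names Ifi211 and Ifi205 (1452349_x_at) was called over the 12 strains (limma adjusted p = 0.00541) and between the RI strains (0.00315). Its strain means were highest in BXH19 at 896.0, BXH4 at 868.8 and BXH7 at 827.0, and lowest in BXH2 at 291.2. The arrays of BXH4, BXH7 and BXH19 spanned 757.9 to 1012.9 and all others spanned 221.3 to 674.0, so these 3 strains stood above the rest here as they did for 1448775_at. C3 minus B6 was -0.29 (limma adjusted p = 0.934). Replicate 1 was higher than replicate 2 in 11 of 12 strains.

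The members lie in a single run of p200 genes in GRCm38.p6. From Ifi206 on, the run holds Ifi214, Ifi213, Ifi209, Ifi208 and Ifi207, then Ifi204, Ifi203-ps and Mndal, and then Ifi211, Ifi203, Ifi202b and Ifi205. Pseudogenes with Gm names are left out of this list. Aim2 lies before Ifi206, at 5 genes from the nearest member. The assembly is used here only for names, gene order and the promoters above. Among 28 probe sets naming a single gene other than a member, inside the cluster or within 40 genes of it, 1 was called over the 12 strains. This was Fh1, the fumarate hydratase of the citric acid cycle, and its r to Ifi209 (1435330_at) over the 9 RI means was -0.12. The called probe set 1452349_x_at names both Ifi211 and Ifi205, so it was not among the 28.

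Farther out on chromosome 1, the RI strain means of several genes followed the division of BXH6, BXH9 and BXH14 from the other RI strains. Of 1207 chromosome 1 probe sets measured, 68 were called over the 12 strains. Among the 1098 probe sets called with a single symbol of another gene, 15 had an r of at least 0.9 in size to Ifi209 (1435330_at) over the 9 RI means, and 12 of these 15 were on chromosome 1. The 12 belonged to 9 genes, Cd84, Fcer1g, Fcgr2b, Gas5, Nit1, Nme7, Rgs4, Rgs5 and Uap1. These lie 63 to 341 annotated genes from Ifi209, all before the cluster on the side of Aim2. Of the 12 correlations, 8 were positive and 4 negative. The other 3 probe sets were Cxcl12 on chromosome 6 (0.91), Slc25a29 on chromosome 12 (0.90) and Epb41l1 on chromosome 2 (-0.91). This set of genes was chosen after the values were seen, and with 9 strain means such correlations are descriptions. Uap1 was near the bottom of the array, with strain means of 1.3 to 27.1.

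The probe sets most like Ifi209 (1435330_at) over the 12 strain means were 2 of Gas5, a long non-coding RNA that hosts small nucleolar RNAs, with r of 0.95 and 0.94. Next was Cd84, a receptor of the SLAM family, with 0.94. In 1424843_a_at, Gas5 had mean signals of 311.2 in B6, 93.2 in C3, 110.4 in BXH6, 88.8 in BXH9 and 102.8 in BXH14. Those most like Ifi202b were Nme7, of the nucleoside diphosphate kinase family (0.96), Tor3a, of the torsin family (0.94), and Tfb1m, a mitochondrial ribosomal RNA methyltransferase on chromosome 17 (0.94). Nme7 had a mean signal of 258.7 in B6, 1013.5 in C3, 418.1 in the hybrid, 1066.4 in BXH6, 1465.9 in BXH9 and 824.5 in BXH14, and of 247.4 to 332.0 in the other 6 RI strains.

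For the Ifi203 loci (1448775_at) the nearest were Spertl (0.85), Klrd1, an NK cell receptor subunit (0.82), and Fcgr2b, the inhibitory Fc receptor (0.81). Spertl was low, with strain means of 5.5 to 37.5. For the probe set shared by Ifi204 and its relatives (1452348_s_at) the nearest were Oasl2 (0.87), Oas2 (0.85) and Igtp (0.84). The first 2 are of the interferon-induced oligoadenylate synthetase family, and Igtp is an interferon-induced GTPase. Likeness was measured by Pearson r over 12 strain means among 1098 candidates.

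**Figure D4:**
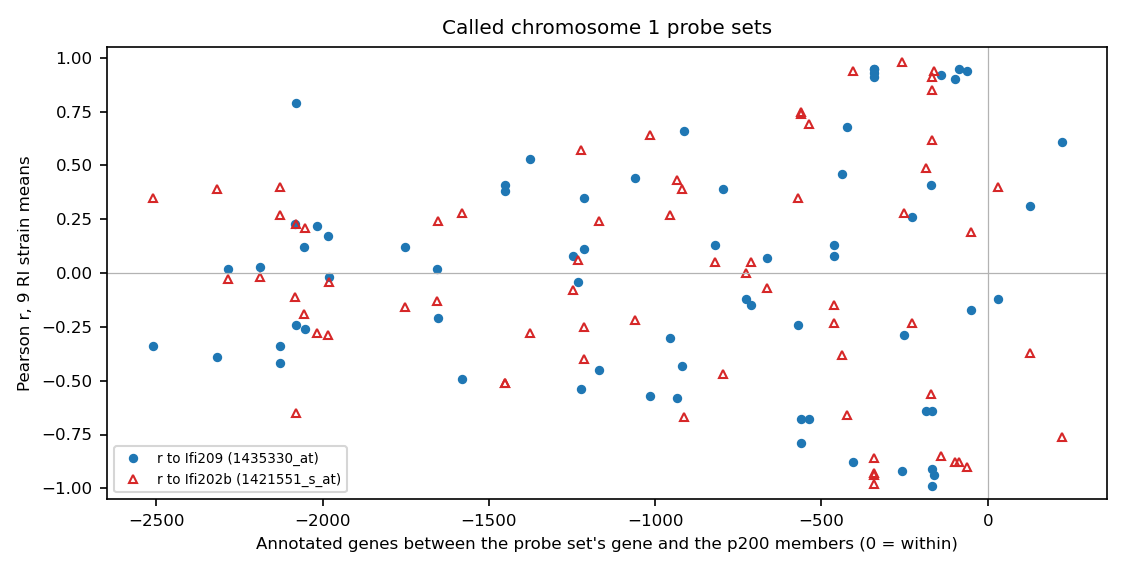
Pearson r over the 9 RI strain means between each of the 68 called chromosome 1 probe sets and Ifi209 (1435330_at, circles) or Ifi202b (1421551_s_at, triangles), against the distance from the p200 cluster counted in annotated genes. Points near 1 or -1 are probe sets whose strain means follow or mirror Ifi209, and those of 0.9 or more in size to Ifi209 lie 63 to 341 genes away.

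Levels of the interferon pathway were set beside the members. Of 32 listed interferon-induced genes, 24 were measured. In C3 minus B6 none of the 24 was called (0 higher and 3 lower at an unadjusted p below 0.05 in limma, against 7.84% of all probe sets in either direction), with a median difference of -0.14 beside -0.01 over all probe sets. The smallest p belonged to Cmpk2, a mitochondrial nucleotide kinase (-0.80, limma adjusted p = 0.272), and Trim30a (-0.57, limma adjusted p = 0.424). Between the 9 RI strains 6 of the 24 were called, against the 5.44% of all probe sets: Oas2, Irf7, Bst2, Oas1a, Ifi27l2a and Oasl2. Oas2, which makes the activator of RNase L, ranged from a mean signal of 171.9 in BXH2 to 708.6 in BXH4 (limma adjusted p = 0.000487). Irf7, the transcription factor that amplifies the interferon response, had a limma adjusted p of 0.00497, and Bst2, which tethers virus particles to the cell, of 0.0127.

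Of 15 measured genes of interferon receptors and signalling (16 listed), limma called none in C3 minus B6 or between the RI strains, and 1 and 4 of them had an unadjusted p below 0.05 in these tests, against 7.84% and 19.4% of all probe sets. Of 16 measured genes of cytosolic nucleic acid sensing and the inflammasome (23 listed), 2 were called between the RI strains, against 5.44% of all probe sets. These were Pycard, the inflammasome adaptor to which Aim2 binds (limma adjusted p = 0.00991), and Sting1, the adaptor of cyclic GMP-AMP signalling (limma adjusted p = 0.031). The C3 minus B6 difference of Pycard was -0.99 (SE 0.26), which missed the threshold with a limma adjusted p of 0.0881. No gene of these 3 lists was called in the hybrid against the midpoint.

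The mean log2 value of the 24 interferon-induced genes was highest in BXH4 at 9.29, BXH19 at 9.02 and BXH7 at 8.96, the strains that were also highest in 1448775_at and 1452349_x_at. It was 8.87 in BXH9, 8.79 in B6, 8.61 in C3 and 8.57 in BXH10, and was lowest in the hybrid at 8.52. Markers of NK cells moved in part with these strains. All 7 measured NK markers were called between the RI strains, against 5.44% of all probe sets. Their mean log2 value was 9.23 in BXH4, 8.24 in BXH19, 8.11 in BXH9 and 7.98 in BXH7, and lowest at 6.91 in BXH6. Of these markers, Klra8 was also called lower in C3 than in B6 (-1.38, limma adjusted p = 0.00365). Its RI means ranged from 1.15 in BXH8 to 183.4 in BXH4. Markers of macrophages and monocytes were called in 3 of 11 and dendritic cell markers in 2 of 6, against the same 5.44%. The macrophage and monocyte mean was highest in BXH19 (9.83) and lowest in BXH10 (9.20). Markers of T cells (7 measured), B cells (7) and neutrophils (8) gave 0 calls between the RI strains in limma, and 3, 1 and 3 of them had an unadjusted p below 0.05, against 19.4% of all probe sets. No marker gene was at 0 on any array, and the part of these cells in the levels of the members was not tested.

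**Figure D5:**
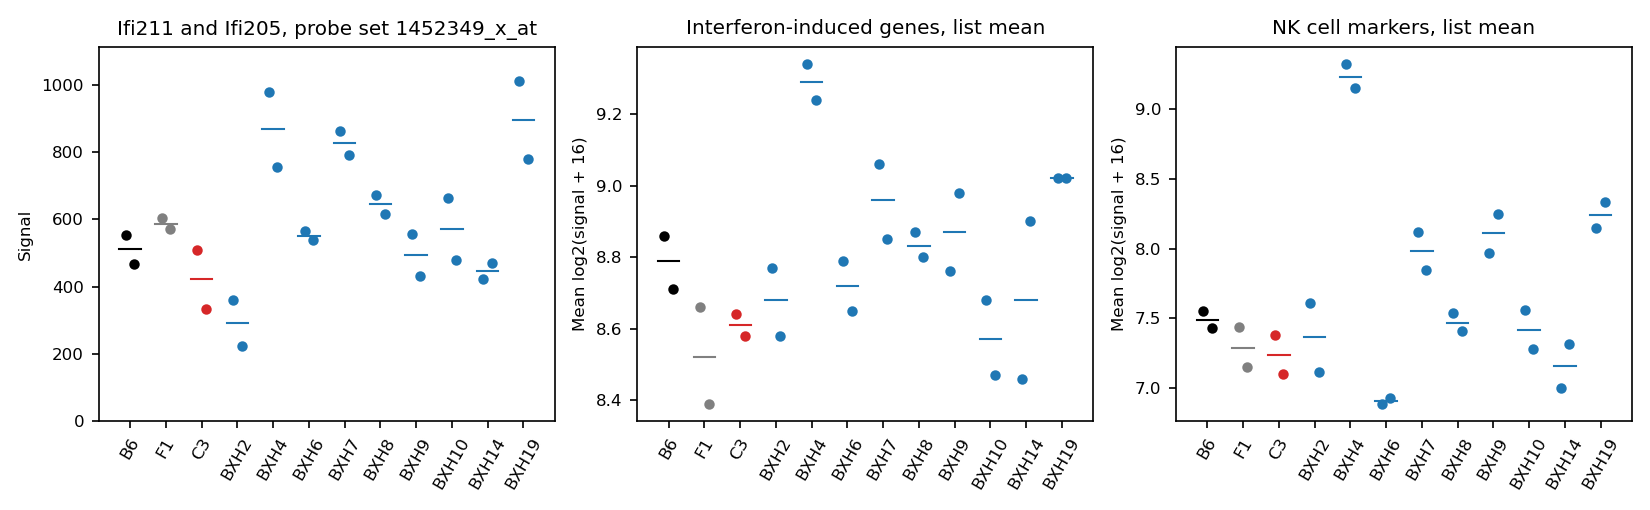
The 12 strains in the probe set that names Ifi211 and Ifi205 (1452349_x_at, linear intensity), in the mean log2 value of 24 interferon-induced genes and in the mean log2 value of 7 NK cell markers. Points are arrays and bars are strain means. BXH4, BXH7 and BXH19 are the 3 strains of highest mean in the first panels, and BXH4 is highest in NK cell markers at 9.23.

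The arrays were alike in scale, and their median signals spanned 0.17 on the log2 scale. Lung markers were present in every strain, with signals of 9579.1 to 20160.1 for Sftpc, a surfactant protein of alveolar type II cells, and 11222.9 to 18168.0 for Scgb1a1, the secretory protein of club cells. Skeletal muscle markers were called in 7 of 11 between the RI strains, against 5.44% of all probe sets. Over all probe sets, 15 of the 24 arrays correlated best with the other array of their own strain.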

How the data were processed

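The deposited values are signal intensities on a linear scale from oligonucleotide arrays hybridised with biotin-labelled cRNA, per the labels' protocols. For their software and scaling, the sources used here give no account. Each array's mean after trimming 2% at each end was 500.11 to 500.13, so the authors' deposited intensity values were already scaled, and no further normalization was applied. Gene symbols came from the platform's annotation table (20380 with 1 symbol, 691 with several, 1555 with none of 22626), after 64 controls were left out. Log2(signal + 16) was fitted with limma 3.58.1 in R 4.3.3, with 12 strains as groups, no filter, a mean-variance trend and 12 residual degrees of freedom. The number of arrays limits the precision. The script was checked on simulated data. Genes named were all probe sets of the members and their relatives, the 3 most alike by r over strain means, chromosome neighbours, and up to 4 of smallest p per pathway list, and exceptions are said in the text. Deviations of arrays with the same replicate number gave 66 correlations of -0.24 to 0.25, with a median of -0.01 and 13 above 0.1. Replicate number was not used as a pairing. The members and lists were chosen with earlier results of these data known. Alternatives were other normalizations, offsets, filters, variance models and arrays left out.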

Additional observations from a re-analysis of the deposited data

How the results depend on the processing

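Ifi209 (1435330_at) and Ifi202b kept their direction between the progenitors and their calls in C3 minus B6, over the 12 strains and between the RI strains in each alternative that tested them. With 1 array left out, C3 minus B6 ranged from -1.93 to -1.67 for Ifi209 and from 2.31 to 2.78 for Ifi202b. With offsets of 1 and 64, Ifi202b gave 3.75 and 1.40. A fit without an array leaves a strain with 1 array, which is assumed to vary like the others. With only the top 60% of probe sets by mean, 4 member probe sets were tested. Of these, 2, 2 and 1 were called over the 12 strains, between the RI strains and in C3 minus B6. With 1 probe set per gene within that top 60%, 1 member was tested among 8272 probe sets, and it was called in each of these 3 tests. The totals over the 8272 were 777 between the RI strains, 142 in C3 minus B6 and 3 for the hybrid. In the main fit they were 1231, 268 and 14 of 22626. The total for the hybrid was 6 without a variance trend. Fits on only the arrays compared gave totals of 74 for C3 minus B6 and 1 for the hybrid. Leaving out 1 array gave 3 to 5 members over the 12 strains, 3 to 5 between the RI strains, 2 to 3 in C3 minus B6 and 0 for the hybrid. The totals were then 1001 to 1318, 925 to 1322, 146 to 276 (146 when C3 replicate 2 was left out, and 154 and 153 when B6 replicate 1 or 2 was) and 2 to 15.

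The RI call of 1448775_at was lost without either array of B6, F1, BXH4, BXH7, BXH8, BXH10 or BXH19, and without replicate 1 of BXH6 or BXH9 (limma adjusted p of 0.0171 to 0.113 over the fits that left out 1 array). The hybrid's difference from the midpoint for Ifi209 (1435330_at) turned to 0.01 after quantile normalization and 0.02 after median centring, and lay between -0.31 and 0.25 with 1 array left out. The same range was -0.25 to 0.30 for 1425008_a_at, -0.53 to 0.32 for Ifi204 and -0.32 to 0.21 for 1452348_s_at. For C3 minus B6 it was -0.81 to 0.30 for 1425008_a_at and -0.65 to 0.04 for 1452348_s_at. The cause of these changes was not tested. With the replicate number as a block, 5 members were called over the 12 strains, 5 between the RI strains, 2 in C3 minus B6 and 0 for the hybrid. The block added 1451567_a_at and changed no other member's call. The strains share only a number, and 13 of 66 pairs had correlated deviations above 0.1. The exclusion of both BXH4 arrays was chosen after seeing the data.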

Other observations

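Tfb1m, the probe set off chromosome 1 whose strain means were most like those of Ifi202b, was itself low. Its B6 arrays gave 9.8 and 5.2 against 70.0 and 69.8 for C3, and the hybrid gave 27.8 and 29.8. The RI strains BXH6 (54.7 ± 6.65, n = 2), BXH9 (74.4 and 52.6) and BXH14 (51.5 and 49.7) had the highest means. BXH4 replicate 1 (43.6) and BXH8 replicate 2 (42.6) came close to those strains, and their partner arrays gave 10.9 and 6.1. Among genes within 40 genes of the cluster, Kmo, the kynurenine 3-monooxygenase, had an r of 0.91 with Ifi209 (1435330_at) over the 9 RI means and was not called over the 12 strains. It was named after its value was seen.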
